A study of Mus musculus with 2 samples.

Results

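The cells described here were 132 barcodes of the P30 heart valve library that carried transcripts of connective tissue matrix together with transcripts induced by interferon. The barcodes were chosen by measured UMIs. A barcode was taken when Col1a1, Col1a2, Col3a1 and Dcn, which encode collagen chains and the proteoglycan decorin, made up at least 1% of its UMIs, and when at least 4 of its UMIs came from Cxcl9, Iigp1, Gbp4, Gbp8 and Igtp. A UMI (unique molecular identifier) stands for 1 captured transcript. The 132 barcodes were 4.64% of the 2846 P30 barcodes over the matrix share (exact 95% Clopper-Pearson interval 3.89 to 5.48), out of 3512 P30 barcodes and 4473 in the series. They were compared with the 2205 P30 matrix barcodes that held 0 UMIs of the 5 marker genes, called marker-free below. Another 509 matrix barcodes with 1 to 3 marker UMIs lay between. The 9 genes of the rule chose the groups, so their levels are a description.

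Aortic and mitral valves of C57BL/6J mice were taken at postnatal day 7 (P7) and day 30 (P30), and single cells were profiled by Drop-seq, in which each cell is captured in a droplet with a barcoded bead and transcripts are counted from their 3′ end. The labels name no genetic change and no treatment. Each age is 1 library, and the number of mice behind it was not given. Age and sequencing run cannot be told apart, no statistical test was made between or within ages, and every interval below covers counting error at 95% only.

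Interferon-gamma is made mainly by T and natural killer cells and acts through its receptor and the Jak kinases on genes that carry GAS elements, among them the gene of the transcription factor Irf1. Its targets include the guanylate-binding proteins and immunity-related GTPases, which attack the membranes of vacuoles that hold intracellular parasites, together with the chemokine Cxcl9 and the MHC class I and class II antigen presentation machinery. Type I interferons act on genes that carry ISRE elements and induce antiviral genes such as Ifit1, Rsad2 and Isg15, and the target sets of both kinds of interferon overlap. Valve interstitial cells are the fibroblast-like cells that build and maintain the valve matrix.

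Of the 5 marker genes, Iigp1, an immunity-related GTPase, was the one that defined nearly every barcode. It was detected in 131 of 132 barcodes with a median of 6 UMIs and a highest value of 68, and it gave 1102 of the 1512 marker UMIs (72.9%). Igtp, another GTPase of that family, was seen in 48 barcodes, and the guanylate-binding proteins Gbp4 and Gbp8 in 38 and 28. Cxcl9, the chemokine that draws Cxcr3-bearing lymphocytes, was seen in 8 barcodes, and 96 of its 183 UMIs lay in 1 of them. A single marker gene supplied all marker UMIs in 58 barcodes, and in 57 of these it was Iigp1. Marker UMIs per barcode ran from 4 to 183 with a median of 7. In 29 barcodes the count was exactly 4, in 62 it was 5 to 9, and in 41 it was 10 or more.

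**Figure D1:**
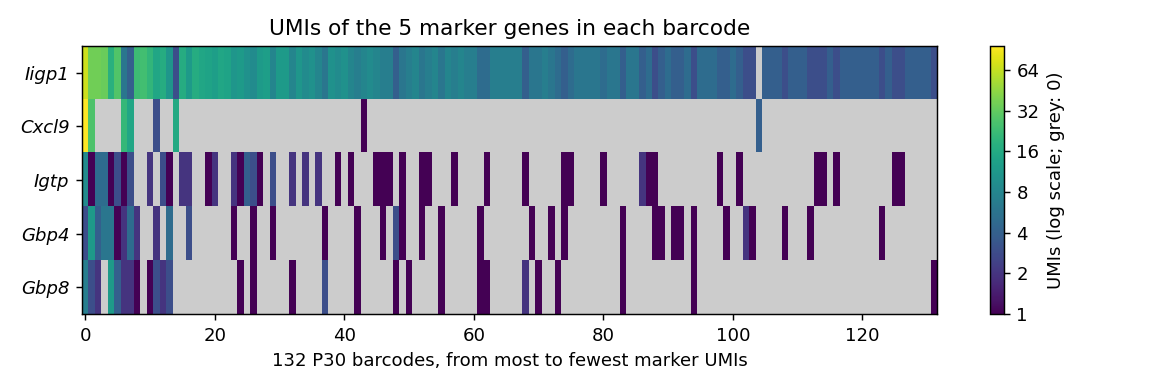
UMIs of the 5 marker genes (rows, colour on a log scale, grey for 0) in each of the 132 barcodes (columns, from most to fewest marker UMIs). Iigp1 fills 131 of the 132 columns, while Cxcl9 appears in 8.

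Genes tied to either kind of interferon stood high in these barcodes, and transcripts of interferon-gamma itself (Ifng) were at 0 UMIs among 554752, which allows a level of up to 6.65 UMIs per 1000000 (CPM, the unit of all levels below, taken over the summed UMIs of a group). Ifng was at 0 UMIs in marker-free barcodes too, so this value does not bear on the name. Because genes tied to either kind of interferon were high, the label interferon-gamma is not used as a name here. The barcodes are called marker-bearing. Of interstitial markers that the rule did not use, Vim was present in 131 of the 132 barcodes, Mgp in 130, Lum in 123 and Postn in 110. Vcan was present in 100, Sox9 in 92, Prg4 in 86 and Col6a1 in 82. Others were seen in few: Pdgfra in 32 and Tcf21 in 20, at 77.5 against 66.5 CPM and 54.1 against 63.8 CPM in marker-free barcodes. Of 16 T and natural killer cell markers, 14 were at 0, including Cd3e and Nkg7. At least 1 UMI of 12 immune and endothelial genes was present in 13 of 132 marker-bearing barcodes (9.85%) and in 8.71% of marker-free ones.

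Marker-bearing barcodes were somewhat deeper, with a median of 3247.5 UMIs (950 to 19235) against 2389 (687 to 17560). Mitochondrial UMIs were 3.94% against 4.49%, and haemoglobin UMIs 0.719% against 0.269%, of which 4 barcodes held nearly all. Without the barcodes of at least 1% haemoglobin in either group, the haemoglobin level was 570 CPM in 128 marker-bearing and 775 CPM in 2183 marker-free barcodes. Endothelial markers summed to 342 CPM against 226, with 79 of 190 UMIs in 1 barcode and 204 CPM without it. Macrophage markers summed to 198 CPM against 102, with 90 of 110 UMIs in 1 barcode and 36.7 CPM without it. That barcode, of 9662 UMIs, carried 3 UMIs of Ptprc, 16 of Lyz2, 7 of C1qa and 7 of Tyrobp. The part of these transcripts in the differences between the groups was not tested beyond the values given without such barcodes.

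A gene was measured when at least 5 UMIs were expected in the marker-bearing barcodes at its level over all P30 matrix barcodes, and it was called when the 2 groups' levels differed at least 2-fold. That level includes the marker-bearing barcodes, so a gene high in them can reach the minimum through its UMIs there. Such genes are kept in the counts and list medians below. Of 8540 measured genes, 259 (3.03%) were higher and 380 (4.45%) lower in the marker-bearing barcodes, and the median log2 ratio was -0.01. The counting interval excluded equal levels for 251 of the higher genes and for 179 of the lower ones. All counts of list members below are read against those shares. The higher side was led by interferon-induced genes.

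**Figure D2:**
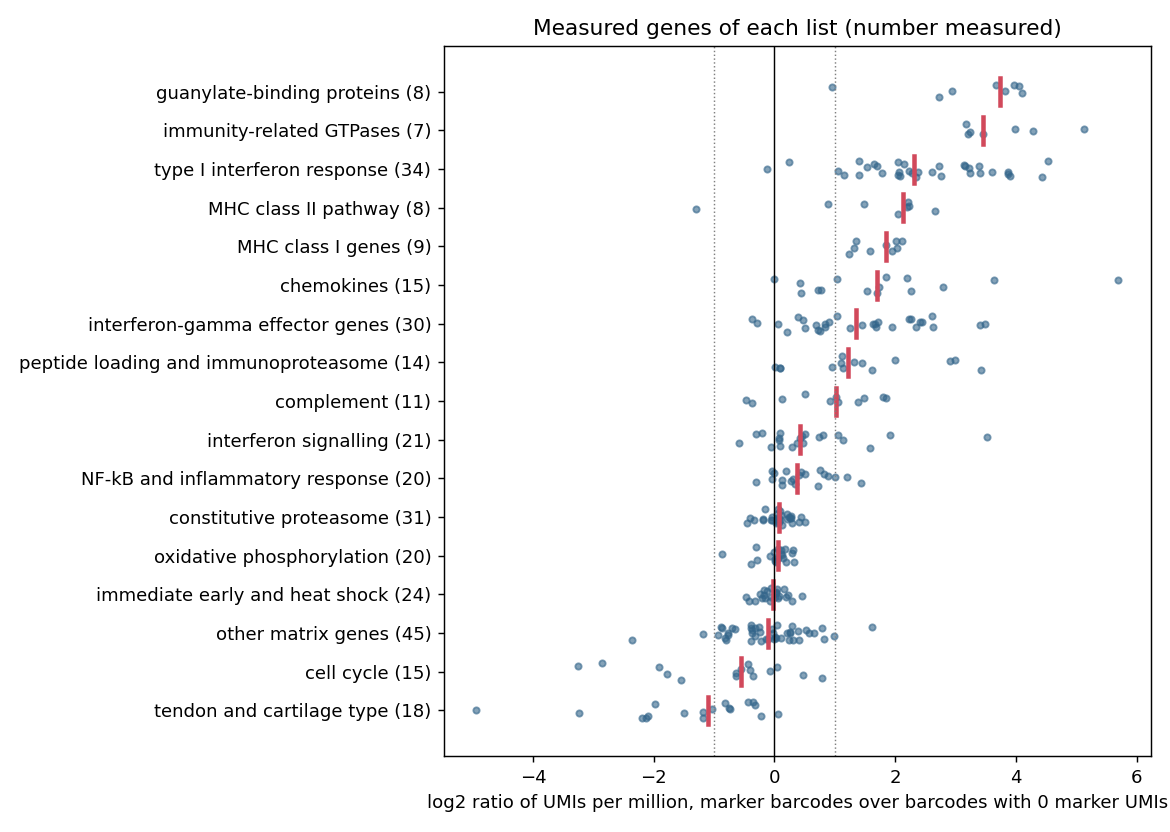
Log2 ratio of CPM in the 132 marker-bearing over the 2205 marker-free barcodes for each measured gene (points), by gene list, with the list median (red bars) and 2-fold limits (dotted lines); genes of the rule are left out. Medians run from 3.74 for guanylate-binding proteins to -1.11 for tendon and cartilage genes, with the constitutive proteasome at 0.07.

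Among the guanylate-binding proteins outside the rule, 7 of 8 measured genes were higher, with a median log2 ratio of 3.74. Gbp2 stood at 434 CPM against 34.1 (log2 ratio 3.67, interval 3.40 to 3.94) and was detected in 69 marker-bearing barcodes, at 0 to 21 UMIs each. Gbp6 stood at 492 against 31.3 CPM (3.97, 3.70 to 4.25), and Gbp7 at 485 against 63.3 CPM (2.94, 2.71 to 3.17). The 132 barcodes held 44.9% of all Gbp6 UMIs of the P30 matrix barcodes while holding 6.58% of their UMIs. Gbp5, which promotes inflammasome assembly, was at 110 against 6.43 CPM, Gbp9 at 184 against 13.03 CPM and Gbp10 at 231 against 13.9 CPM. Gbp5 reached the minimum for measurement only with its 61 UMIs in the 132 barcodes, beside 19 UMIs at 1 to 3 marker UMIs and 39 at 0. Gbp2b was the member that was not called, at 14.4 against 7.42 CPM. In the mouse genome these genes lie in 2 clusters. In the mm10 assembly, 5 of the listed genes (Gbp2, Gbp2b, Gbp3, Gbp5 and Gbp7) sit at chr3:142493978-142638008 and 6 (Gbp4, Gbp6, Gbp8, Gbp9, Gbp10 and Gbp11) at chr5:105014150-105346472, all as annotated by GENCODE. Genes of both clusters were high. In this annotation Gbp9 overlaps Gbp4 and Gbp8, genes of the rule, on the same strand. Whether reads were shared between them was not tested.

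Among the immunity-related GTPases outside the rule the pattern was alike, with 7 of 7 measured genes higher and a median log2 ratio of 3.46. Irgm1, which keeps the effector GTPases of the family off the cell's own membranes, was at 245 CPM against 22.3 (log2 ratio 3.46, interval 3.11 to 3.82), and Irgm2 at 82.9 against 9.24 CPM. Tgtp2 was at 81.1 against 2.31 CPM, and 56.2% of its P30 matrix UMIs lay in the 132 barcodes. It reached the minimum for measurement only with these 45 UMIs, beside 21 UMIs at 1 to 3 marker UMIs and 14 at 0. Ifi47 and Tgtp1 missed the minimum for measurement, at 90.1 against 1.65 CPM and 64.9 against 1.65 CPM. Tgtp1 and Tgtp2 are near-identical copies, as are Gm4951 with F830016B08Rik, Gvin1 with Gm4070, and Gbp6 with Gbp10, so the split of reads within each pair is uncertain. In the GENCODE annotation Irgm2 overlaps Igtp, a gene of the rule, on the same strand. Whether reads were shared between them was not tested.

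Promoter sequence was read for these families because their members stood high together. The table of RefSeq promoters (assembly GRCm38.p6) gives 300 bases per gene, from 250 before the start site to 50 after. These were searched on both strands for an ISRE core, GAAA followed by any 2 bases and GAAA, and for a GAS core, TTCNNNGAA. Matches of the 2 patterns may overlap. An ISRE core was present in the promoters of 5 of 5 matched guanylate-binding protein genes, 7 of 11 matched GTPase genes, 22 of 37 matched type I interferon response genes, 2 of 25 constitutive proteasome genes and 0 of 14 tendon and cartilage genes. Over all 27025 genes of the table the share was 3.99%. A GAS core was present in 2 of 5, 5 of 11 and 7 of 37 of the first 3 sets, against 9.55% of all genes. Of the 259 genes called higher, 185 had a promoter in the table and 24.9% of those held an ISRE core, against 3.95% of all measured genes and 2.14% of the genes called lower. A match is a run of letters, not a shown binding site. The windows below come from the bases before the start site and run 5′ to 3′ on the gene's own strand, with the matching letters in capitals. The first 4 show GTPase genes, Igtp of the rule among them, in which a GAS core lies directly before an ISRE core. Not every GTPase gene that holds both cores is shown. The next 2 show guanylate-binding protein genes, and the last 3 show antiviral genes that hold ISRE cores alone.
Igtp (chr11:58199501-58199541, + strand): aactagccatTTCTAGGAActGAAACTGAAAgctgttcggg
Irgm2 (chr11:58214892-58214932, + strand): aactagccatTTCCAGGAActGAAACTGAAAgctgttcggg
Tgtp1 (chr11:48992304-48992344, - strand): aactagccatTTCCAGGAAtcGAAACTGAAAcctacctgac
Tgtp2 (chr11:49064263-49064303, - strand): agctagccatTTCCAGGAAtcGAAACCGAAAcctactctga
Gbp7 (chr3:142530220-142530302, + strand): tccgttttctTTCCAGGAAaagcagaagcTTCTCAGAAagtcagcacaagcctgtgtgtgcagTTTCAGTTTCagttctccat
Gbp2 (chr3:142620594-142620623, + strand): actcttttagTTTCACTTTCactgtcttaa
Ifit1 (chr19:34640775-34640823, + strand): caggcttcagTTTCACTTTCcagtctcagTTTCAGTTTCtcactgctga
Ifit3 (chr19:34583363-34583426, + strand): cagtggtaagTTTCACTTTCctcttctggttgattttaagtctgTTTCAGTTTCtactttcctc
Isg15 (chr4:156200865-156200906, - strand): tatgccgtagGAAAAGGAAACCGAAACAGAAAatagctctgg

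Genes of the type I interferon response stood high as well, with 32 of 34 measured members higher and a median log2 ratio of 2.31. Ifit1, which binds foreign RNA, was at 260 CPM against 12.04 (log2 ratio 4.43, interval 4.01 to 4.86), and 41 marker-bearing barcodes carried it at up to 22 UMIs. Ifit3 was at 456 against 31.3 CPM (3.86, 3.59 to 4.14), and the antiviral enzyme gene Rsad2 at 153 against 6.60 CPM (4.54, 3.98 to 5.12). Isg15, a ubiquitin-like modifier, was at 487 against 39.9 CPM (3.61, 3.35 to 3.86) and Usp18, which removes it from proteins, at 88.3 against 5.94 CPM. The restriction factor Bst2 was at 386 against 63.2 CPM and the transcription factor Irf7 at 88.3 against 8.41 CPM. Ifi27 at 288 against 315 CPM and Ifitm2 at 292 against 247 CPM were the 2 measured members not called, and their relative Ifitm3 was at 1985 against 895 CPM.

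The shares of barcodes with these genes were also taken with each barcode thinned to 500 UMIs, since the groups differed in depth. Isg15 was present in 51.5% of marker-bearing and 8.25% of marker-free barcodes, and in 19.97% against 2.07% after thinning. Gbp7 was present in 68.9% against 12.4%, and in 24.9% against 3.15% after thinning. Haemoglobin transcripts, which these cells are not known to make, gave the background of free RNA: Hba-a1 was present in 38.6% against 38.9%, and in 9.43% against 11.4% after thinning.

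Genes of the signalling pathway divided. Of 21 measured members 5 were higher, and the list median was 0.42. The higher ones included Stat2, a subunit of the factor that binds ISRE elements, at 103 against 27.4 CPM (log2 ratio 1.91, interval 1.45 to 2.35), Irf9 at 72.1 against 34.8 CPM, the feedback inhibitor Socs1 at 55.9 against 25.6 CPM and the interferon-induced gene Nmi at 184 against 61.4 CPM. The receptor chains and Jak1 were not called: the log2 ratio was 0.38 for Ifngr1, 0.10 for Ifngr2, -0.30 for Ifnar1, 0.07 for Ifnar2 and 0.08 for Jak1. Jak2 was at 14.4 against 21.6 CPM with an interval of -1.83 to 0.44 on the log2 scale, and Tyk2, with 2 UMIs, missed the minimum. Irf1 was at 314 against 180 CPM, under the 2-fold limit, with an interval of 0.56 to 1.03 on the log2 scale.

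All 9 measured MHC class I genes were higher, with a median log2 ratio of 1.86. B2m, the shared light chain, was at 5940 CPM against 2332 (1.35, 1.29 to 1.40), and 131 marker-bearing barcodes carried it with a median of 16 and a highest value of 144 UMIs. The heavy chain gene H2-K1 was at 766 against 212 CPM, H2-D1 at 1141 against 458 CPM and H2-T23 at 220 against 54.1 CPM. H2-Q4, H2-Q6 and H2-Q7 were each higher too, though reads among these close relatives may be exchanged. In the loading pathway 10 of 14 measured genes were higher. They included the peptide transporter Tap1 (79.3 against 7.42 CPM) and the immunoproteasome subunits Psmb8 (310 against 41.4 CPM), Psmb9 (103 against 12.9 CPM) and Psmb10 (146 against 36.6 CPM). The general chaperones Calr, Canx and Pdia3 had log2 ratios of 0.00, 0.09 and 0.09. None of 31 measured constitutive proteasome genes was called in either direction, and their median was 0.07.

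In the MHC class II pathway the median log2 ratio was 2.13, with 6 of 8 measured genes called higher and 1 lower. H2-Ab1 was at 353 CPM against 77.0 (log2 interval 1.95 to 2.44) and present in 48 marker-bearing barcodes at up to 25 UMIs, H2-Aa was at 182 against 38.8 CPM, H2-Eb1 at 200 against 43.2 CPM and the invariant chain Cd74 at 168 against 40.4 CPM. Ifi30, a lysosomal reductase, was the lower one, at 4 UMIs and an interval that spans equal levels. The class II regulator Ciita had 2 UMIs in 2 barcodes. Macrophages and dendritic cells also express these genes. In barcodes free of the 12 immune and endothelial genes, 4 class II genes (H2-Aa, H2-Ab1, H2-Eb1 and Cd74) summed to 827 CPM in marker-bearing barcodes and to 144 CPM in marker-free ones, and the part of such cells was not tested beyond these values.

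Of 30 other measured interferon-gamma effector genes 17 were higher, and the median was 1.36. Slfn8 stood at 70.3 against 6.27 CPM, Ly6a at 382 against 72.1 CPM and the carbohydrate-binding protein gene Lgals9 at 186 against 58.5 CPM. Icam1 and Vcam1, which bind leukocyte integrins, were under the limit at 108 against 75.7 CPM and 1123 against 600 CPM. The checkpoint ligand Cd274 missed the minimum, with 9 UMIs in 5 marker-bearing barcodes and 4 UMIs in 4 of the marker-free ones.

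Of 15 measured chemokine genes besides Cxcl9, 10 were higher, with a median log2 ratio of 1.69 that was 1.05 in barcodes with at least 6 marker UMIs. Cxcl10, the other Cxcr3 ligand measured, was at 249 CPM against 52.0 (2.26, 1.96 to 2.55) in 35 barcodes. The neutrophil attractant Cxcl1 was at 1458 against 709 CPM and the monocyte attractant Ccl2 at 231 against 64.0 CPM. Ccl8 had the largest ratio by its interval bound, at 68.5 against 1.32 CPM, but 37 of its 38 UMIs lay in the barcode that carried the macrophage transcripts, and the log2 ratio fell from 5.70 to 1.88 without the barcodes that held an immune or endothelial UMI. Ccl12 was found in 1 marker-bearing barcode alone. Of 11 measured complement genes 6 were higher, among them C3 (68.5 against 19.8 CPM) and C4b (328 against 117 CPM, a near-copy of C4a).

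Matrix genes that the rule did not use stood near equal levels. Of 45 measured genes 1 was higher and 2 lower, with a median of -0.11, and of 6 other fibrillar collagen genes none was called (median -0.16). Efemp1 was the higher one (59.5 against 19.5 CPM), and Tnc (5.41 against 27.9 CPM) and the lubricating proteoglycan Prg4 (3014 against 6872 CPM) the lower ones. Prg4 was no longer called in barcodes with at least 6 marker UMIs (log2 ratio -0.83) or with at least 2 of the 5 marker genes (-0.87), against -1.19 over all 132. Lum at 2069 against 1723 CPM, Postn at 1478 against 1233 CPM and Bgn at 2232 against 2200 CPM were not called. The tendon and cartilage list differed, with 10 of 18 measured genes lower, none higher and a median of -1.11. This was not particular to the marker-bearing barcodes. In barcodes with 1 to 3 marker UMIs 9 of the 18 were lower than in marker-free ones, with a median of -1.02. Chad, a cartilage adhesion protein gene, was at 41.5 CPM against 181 (-2.13, -2.79 to -1.53), in 5 marker-bearing barcodes. Cilp was at 50.5 against 198 CPM, Comp at 265 against 540 CPM and Cytl1 at 105 against 294 CPM, while their regulator Sox9 was at 454 against 437 CPM. Clec3a was at 0 UMIs against 21.8 CPM, a log2 ratio of at most -2.01 with the floor of 3 counts. The osteocalcin genes Bglap, Bglap2 and Bglap3, near-copies that can share reads, had 1, 4 and 2 UMIs against 55.4, 68.1 and 42.6 CPM.

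Of 19 measured genes of an immune-type fibroblast list, 10 were higher and 1 lower (median 1.04), with overlap between this list and the chemokine and complement lists. In barcodes with at least 6 marker UMIs the median was 0.13. Apod was at 308 against 75.2 CPM and Mmp3, a matrix protease gene, at 739 against 330 CPM, while Pi16 was at 66.7 against 139 CPM. Rgs5, a pericyte and interstitial marker, was at 530 against 232 CPM, and 4 other genes of its list were not called. The Rgs5 level was not particular to the marker-bearing barcodes, as it was 453 CPM with 1 to 3 marker UMIs. It was 691 CPM at exactly 3 marker UMIs and 307 CPM at exactly 4. Mural cell markers went both ways. The 9 markers summed to 1033 against 761 CPM, but this sum includes the 530 against 232 CPM of Rgs5 itself. Abcc9 was at 63.1 against 21.9 CPM, Kcnj8 at 36.1 against 19.8 CPM and Notch3 at 16.2 against 6.10 CPM. Cspg4 was lower, at 9.01 against 42.4 CPM, as were Acta2 (log2 ratio -0.62) and Tagln (-0.30, with an interval that spans equal levels). Pdgfrb had a log2 ratio of 0.19, and Myh11 had 1 UMI. The part of mural transcripts in the Rgs5 level was not tested. Among 20 NF-kB targets 3 were higher (median 0.38), and none of 24 immediate early and heat shock genes or 20 oxidative phosphorylation genes was called (medians -0.02 and 0.06). Of 15 cell cycle genes 5 were lower (median -0.55). Their sign depended on the setting: the median was 0.24 when 3 marker UMIs sufficed, also 0.24 when each barcode was weighted equally, and -1.34 with 9 genes lower when the marker-free level was taken over matched strata of depth. Cenpf turned from a log2 ratio of -3.25 to 1.16 at 3 marker UMIs.

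Guanylate-binding proteins and immunity-related GTPases were higher at each step in the number of marker UMIs, on both sides of the threshold of 4. Counting intervals of neighbouring steps overlapped in places. At 3 and 4 marker UMIs they were 692 to 992 and 885 to 1256 CPM for guanylate-binding proteins. For the GTPases they were 479 to 735 and 643 to 965 CPM. Guanylate-binding proteins summed to 201 CPM at 0 marker UMIs, 379 at 1, 421 at 2, 832 at 3, 1059 at 4, 1330 at 5 to 9 and 4347 at 10 or more. Just outside the threshold lay 38 barcodes with 3 marker UMIs and just inside 29 with 4. The immunity-related GTPases were at 597 and 792 CPM in them, the type I list at 5177 and 7369 CPM, and the MHC class I genes at 4842 and 7862 CPM. Other lists did not go up step by step. The type I list was at 7156 and MHC class I at 6437 CPM at 5 to 9 marker UMIs, under their levels at 4. The MHC class II pathway ran between 343 and 558 CPM from 1 to 9 marker UMIs and was at 2173 CPM at 10 or more. Chemokines other than Cxcl9 were at 2550, 1575, 758, 5244, 2054 and 3055 CPM over the 6 steps above 0, in no order. At 4 marker UMIs, 191 of the 649 chemokine UMIs lay in the barcode that carried the macrophage transcripts, and 141 in another. Tendon and cartilage genes were at 27957 CPM at 0, 19878 CPM at 1, 13688 CPM at 4 and 19905 CPM at 10 or more. The constitutive proteasome stayed between 3923 and 4721 CPM over all 7 steps. A barcode with more UMIs has more chance of a marker UMI, and median depth was 2389 at 0 marker UMIs and 2901 to 3337 at the other steps. In the 509 barcodes with 1 to 3 marker UMIs, 97 genes (1.14%) were at least 2-fold higher than in marker-free barcodes and 46 (0.539%) lower. Of the type I list 17 of 34 measured genes were higher there, and 5 of 8 guanylate-binding proteins. Marker-free barcodes are shared by both comparisons.

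**Figure D3:**
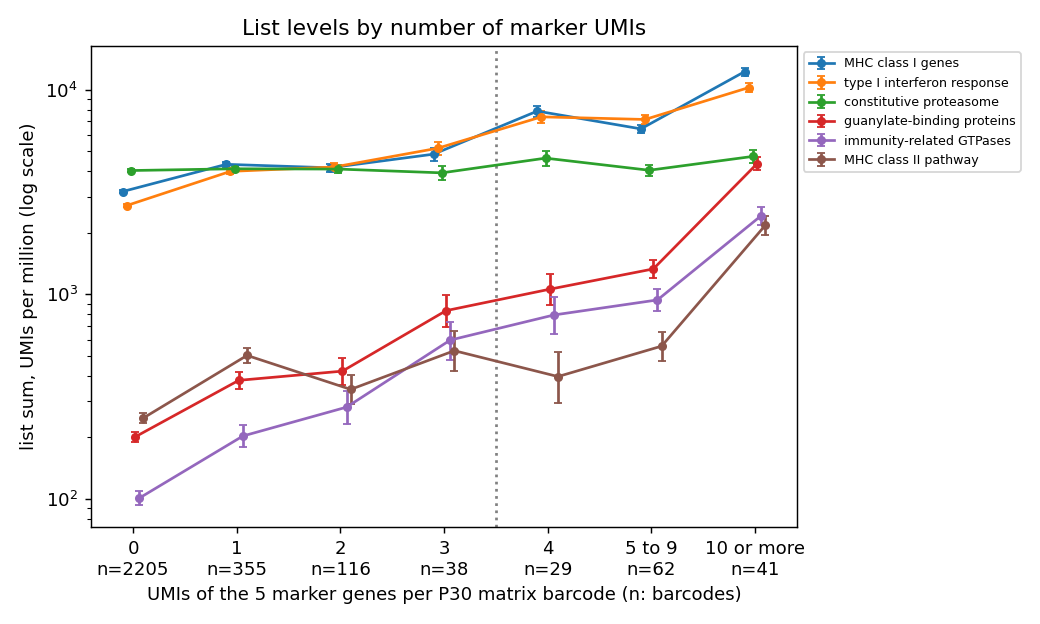
Summed level of 6 gene lists (CPM, log scale, exact 95% counting intervals) by the number of marker UMIs in P30 matrix barcodes; the dotted line is the threshold of 4 and genes of the rule are left out. Guanylate-binding proteins go from 201 to 4347, while the constitutive proteasome stays between 3923 and 4721.

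The marker-bearing barcodes were not alike in which interferon genes they carried. A barcode was counted as class II positive with at least 2 UMIs of H2-Aa, H2-Ab1, H2-Eb1 and Cd74, and as type I positive with at least 2 UMIs of Ifit1, Ifit3, Isg15, Rsad2 and Usp18; both sets and limits were chosen after the values were seen. By these limits 48 of 132 barcodes were positive for type I alone (36.4%), 23 for class II alone (17.4%), 23 for both and 38 for neither (28.8%). Median depth was 3494, 3172, 3130 and 3205 UMIs. In marker-free barcodes the counts were 95, 127, 9 and 1974. Thinned to 500 UMIs, 14.1% of marker-bearing and 1.62% of marker-free barcodes were class II positive, and 19.9% and 0.549% type I positive.

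Genes that did not define these groups differed among them. Cxcl9 is part of the rule that chose the barcodes, so its spread is a description. It was found in 5 of the 23 barcodes positive for class II alone and 2 of the 23 positive for both. It was also in 1 of the 48 positive for type I alone and 0 of the 38 others. Gbp2 was at 780 and 813 CPM in the groups with class II, against 303 CPM with type I alone and 202 CPM with neither. H2-K1 was at 1805 CPM with class II alone, 1094 with both, 474 with type I alone and 404 with neither. Rtp4, a type I response gene, was at 208 and 176 CPM in the groups with type I genes. It was at 23.3 CPM with class II alone and 77.3 CPM with neither. In the order both, class II alone, type I alone and neither, Ifit2 was at 813, 11.6, 186 and 11.9 CPM. In that order Bst2 was at 552, 466, 420 and 208 CPM, so it did not follow this split. Irf7 (115, 58.2, 103 and 71.4 CPM) and Ifi27l2a (1282, 605, 1680 and 1094 CPM) followed it over a narrower range. Rgs5 was at 1432 CPM with class II alone, 333 with both, 410 with type I alone and 327 with neither. In marker-free barcodes Rgs5 was at 759 CPM with class II alone and 195 CPM with neither. Iigp1, which is also part of the rule, was at 1431 to 2911 CPM in all 4 groups.

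**Figure D4:**
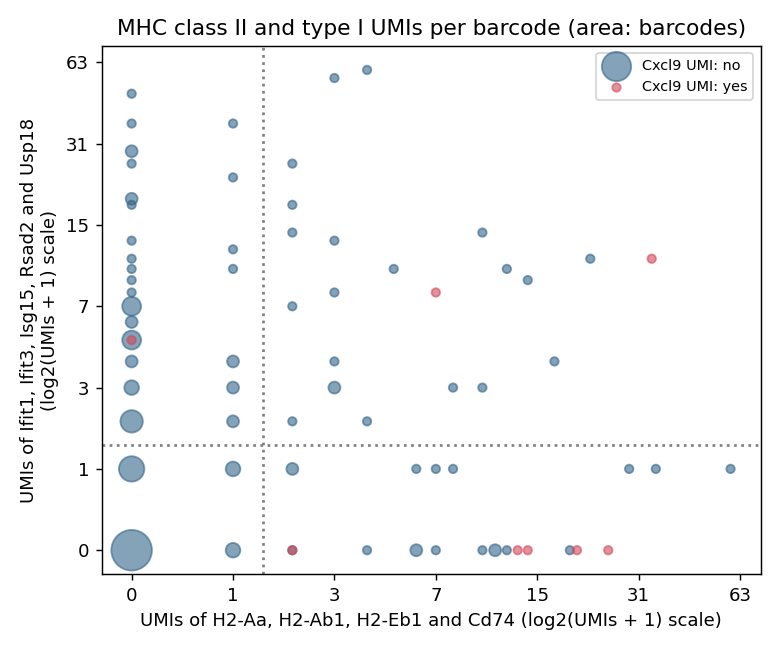
UMIs of 4 MHC class II genes against UMIs of 5 type I interferon genes in each of the 132 marker-bearing barcodes, on log2(UMIs + 1) axes, with point area giving the number of barcodes and dotted lines the limit of 2 UMIs. Of the 8 barcodes with Cxcl9 (red), 5 lie in the class II only corner.

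The 8 barcodes with Cxcl9 held 0 to 34 UMIs of the 4 class II genes, and the highest count among the 132, 59 UMIs, was in a barcode without Cxcl9. In the 8 barcodes the MHC class I genes summed to 20737 CPM against 7615 CPM in the other 124 marker-bearing barcodes, and the class II pathway to 3317 against 838 CPM. Guanylate-binding proteins were at 4989 against 1968 CPM, of which 84 of 185 UMIs came from the barcode with the most marker UMIs. Without it the guanylate-binding proteins were at 3219 CPM, the immunity-related GTPases at 1626 rather than 2751 CPM (1248 CPM in the other 124 barcodes), and class I and class II at 18584 and 2741 CPM. The type I list was at 7631 against 8162 CPM, Isg15 at 135 against 512 CPM, and Usp18 at 0 against 94.7 CPM, where 0 UMIs allow up to 99.5 CPM. The T cell chemokine Ccl5 had 15 UMIs in 3 of the 8 barcodes and 2 UMIs in the other 124. Prg4 was at 9627 against 2540 CPM in them, above the marker-free level, and their median depth was 4363.5 UMIs against 3196.

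Of the 666 P30 barcodes under the matrix share, 53 also carried at least 4 marker UMIs (7.96%, 6.02 to 10.3). Their median depth was 5032 UMIs, 31 were led by endothelial and 15 by macrophage markers, and 7 by neither. All 666 had a median of 2006 UMIs. Per summed UMI, guanylate-binding proteins were lower in the 53 than in the 132 marker-bearing barcodes, at 639 CPM against 2170 CPM. The GTPases were at 1216 against 1348 CPM. Deep barcodes weigh on these sums, as 1 of the 53 held 172266 of their 886239 UMIs. A fixed limit of 4 marker UMIs also asks for less per UMI in a deep barcode. The 5 marker genes themselves were at 594 CPM in the 53 and 2726 CPM in the 132. The part of depth in the lower levels was not tested.

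At P7 the same rule found 1 of 722 matrix barcodes (0.139%, 0.00351 to 0.769), with 4 marker UMIs among 2176, and 53 more had 1 to 3. No barcode sequence was shared by the libraries. The share of matrix barcodes with at least 1 marker UMI was 22.5% at P30 and 7.48% at P7, and 7.65% and 1.59% after thinning to 500 UMIs, with median depths of 2546.5 and 2241 UMIs. The difference was not limited to the marker-bearing barcodes. Of 19 interferon-induced genes outside the rule, 18 were also higher in marker-free P30 barcodes than in all P7 matrix barcodes, with an interval that excluded equal levels. By that criterion 1770 of 12184 measured genes (14.5%) were higher in marker-free P30 barcodes, and the median log2 ratio of all of them was -0.31. The 19 genes were picked with their P30 levels known. H2-K1 was at 15.1 CPM at P7, 212 in marker-free P30 barcodes and 766 in marker-bearing ones. Isg15 was at 1.83, 39.9 and 487 CPM, and Ifi27l2a at 4.12, 608 and 1267 CPM. Rsad2 was the exception, at 5.04 and 6.60 CPM in the first 2 groups.

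**Figure D5:**
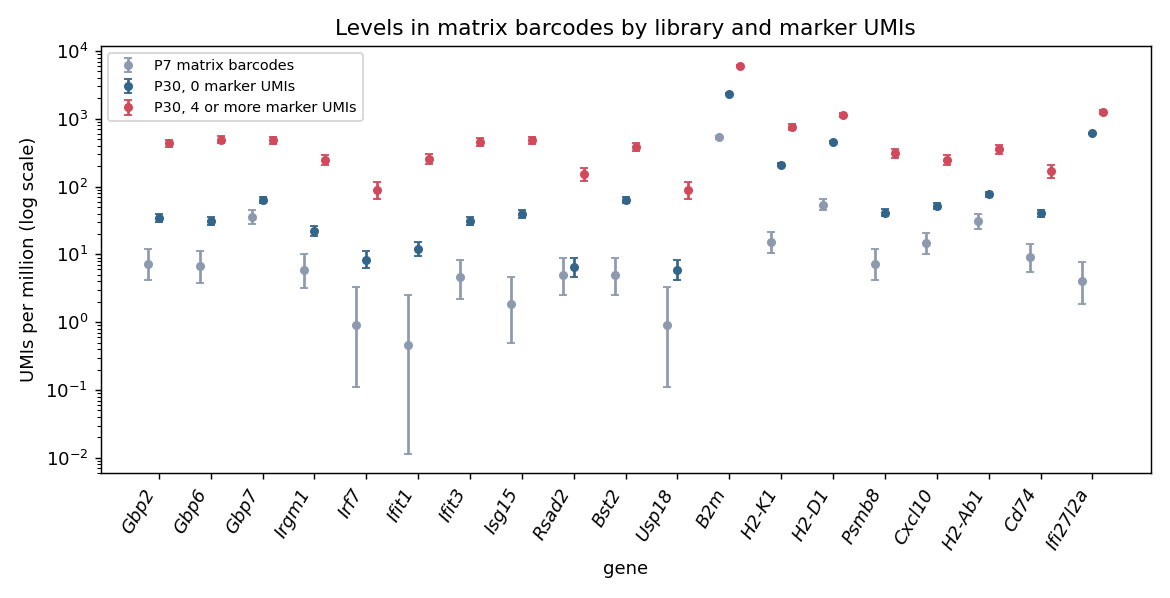
Levels of 19 interferon-induced genes (CPM, log scale, exact 95% counting intervals) in P7 matrix barcodes, marker-free P30 barcodes and the 132 marker-bearing P30 barcodes. Each gene is highest in the marker-bearing barcodes. For 18 of the 19, the level at P7 is under that of marker-free P30 barcodes with a ratio interval that excludes equal levels.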

How the data were processed

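Drop-seq libraries of P7 and P30 mouse heart valves were analysed, 1 per age. The tables hold raw UMI counts per gene and barcode as the authors deposited them. Per the submitters' processing notes, Bowtie2 2.2.7 and the mm10 assembly were used, in roles that are not stated. Which program counted UMIs, and on which gene models, is not given in the sources used here. Normalized tables were left aside. The P30 library held 11267724 UMIs and the P7 library 3116184. No further barcode filter or doublet removal was applied.

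Counts were summed over the barcodes of a group with Python 3.11.15, numpy 2.4.6 and scipy 1.17.1, after a check of the scripts on simulated counts. Intervals are exact and at 95%: Poisson for a level, Clopper-Pearson for a share, and for a ratio the binomial given both groups' total. A group at 0 was set to a floor of 3 counts. A gene was measured at an expected count of at least 5 and called at 2-fold. With 1 library no p-value was computed. Genes named beyond the 26 lists and the cell type markers were the 12 per direction whose interval bound lay farthest from equal levels, leaving out the rule's genes and mitochondrial, ribosomal, haemoglobin and unnamed genes. The members and lists were chosen with earlier results of these data known. Some genes of the lists are not reported here by name.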

Additional observations from a re-analysis of the deposited data

How the results depend on the processing

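No paired analysis was possible because each age is 1 library and no result comes from a test. Across 14 alternatives the direction held for 335 of 336 values of the singly named genes. Of 364 list medians, 355 stayed within the spread of the reported median among the list's own genes, which is not counting error. That spread can be wide, as for MHC class II genes at -1.29 to 2.66, so a median can move far within it. The immune-type fibroblast median stayed within its spread at 0.13, against 1.04 as reported. The exceptions follow. With an expected count of at least 10 the genes called were 129 higher and 141 lower, and with at least 2 they were 526 and 788. Weighting barcodes equally gave medians of 2.07 for MHC class I, 2.71 for class II and 0.24 for cell cycle genes. With 3 marker UMIs the cell cycle median was 0.24, that of growth arrest genes 0.21, and the Cenpf ratio 1.16. The Npy Tppp3 list median was -0.38 with 6 marker UMIs, -0.38 without barcodes holding an immune or endothelial UMI and -0.29 in barcodes with at least 2 of the 5 genes, where guanylate-binding proteins reached 4.20. The cause of these shifts was not tested. The last setting, and those without the top marker barcode, the Cxcl9 barcodes or haemoglobin-rich barcodes, were chosen after seeing the data. Depth limits genes such as Ciita and Cd274, seen at few UMIs, and the number of mice limits every statement to these libraries.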
